A study of Mus musculus with 6 samples.

Results

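The mitochondrial respiratory chain and ATP synthase were followed here through their nuclear genes in mouse Treg, or regulatory T cells, a CD4 lineage defined by Foxp3 that keeps immune responses in check. Members were the genes whose symbol begins with Nduf, Uqcr, Cox4 to Cox8 or Atp5, or is Sdha, Sdhb, Sdhc or Sdhd, without pseudogenes. This gave 92 genes of the 24421 in the table, chosen by name and not by a filter on measured values. Earlier results of these data were known when the choice was made. The samples were wild-type Treg preparations from spleen and lymph nodes in 3 groups of 2 SMART-seq libraries: unstimulated, stimulated, and stimulated with iBP. All groups are of the same genotype, and no group received iBP without stimulation. The design describes iBP as an inhibitor of H2AK119ub1, the ubiquitin mark that Polycomb repressive complex 1 places on histone H2A, and says that cells were activated in vitro. Treg of Kdm2b conditional knockout mice, also named in the design, were not analysed here. The stimulus, its duration, the dose of iBP, the number of animals behind a library, and their age are not given in the labels. Each library was made from 100000 cells by oligo-dT priming and PCR amplification of full-length cDNA.

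Oxidative phosphorylation passes electrons from NADH and succinate through complexes I, II, III and IV to oxygen, and ATP synthase uses the proton gradient that this builds. Most subunits are encoded in the nucleus, translated in the cytosol and imported, while a few core subunits of complexes I, III, IV and ATP synthase are encoded by mitochondrial DNA and were not analysed here. Treg are known for their reliance on mitochondrial respiration, and conventional T cells shift towards glycolysis when activated.

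The nuclear oxidative phosphorylation genes were abundantly expressed in every library, and none passed the test in any comparison. Together they held 1.57% and 1.44% of the summed FPKM (a read measure adjusted for transcript length and library total) in the unstimulated libraries. The share was 1.56% and 1.46% in the stimulated libraries, and 1.47% and 1.51% with iBP. As group means these were 1.51% ± 0.0907, 1.51% ± 0.0695 and 1.49% ± 0.0299 (SD, n = 2 libraries), so the groups overlapped and their means differed by less than the spread between replicates. In bulk RNA, fewer cells expressing a gene and less RNA per cell cannot be told apart. Of the 92 members, 84 reached an FPKM of 1 in 2 or more libraries and were tested. The other 8 were isoforms known from other tissues, and all had a mean below 1.

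The libraries carried Treg transcripts, with Foxp3 at 35.5 and 47.1 FPKM unstimulated, 121 and 101 stimulated, and 122 and 124 with iBP, and Ctla4 between 196 and 291. The 7 Treg and T cell markers in the table summed to 0.166% and 0.181% of the total unstimulated. The sum was higher in both stimulated groups, at 0.227% and 0.232% without iBP and 0.247% and 0.244% with it. Foxp3, Il2ra and Ctla4 were higher in both groups, and Cd3e by a small margin without iBP (67.3 and 69.0 against 57.6 and 67.2). Ikzf2, Cd4 and Cd3g were not higher, with Cd4 at 87.4 and 104 unstimulated and 84.3 and 83.1 stimulated. The libraries also carried transcripts of B cells, with Cd79b between 222 and 340 FPKM and lowest in the iBP libraries, and Ms4a1 between 66.3 and 75.0. Cd79a was between 234 and 291 FPKM, so B-cell RNA was present in every library alongside that of Treg. Erythroid and platelet markers (7 genes) summed to between 0.084% and 0.205% of the total FPKM, lowest in iBP replicate 2. The 8 myeloid markers summed to between 0.0219% and 0.0311%, and the CD8 pair to between 0.00224% and 0.00383%. Summed stromal and endothelial markers (4 genes) were between 0.00384% and 0.00702%, and the 6 pancreatic acinar markers between 0.0073% and 0.0354%, highest in stimulated replicate 2. Of the 4 stromal and endothelial markers, Col1a1 and Cdh5, which define fibroblasts and endothelium, were at 0 in most libraries. Pecam1, which T cells and platelets also express, read 26.8 and 24.7 FPKM unstimulated, 14.4 and 15.4 stimulated, and 18.4 and 21.2 with iBP, and made up most of that sum. The part of these other cells in the results was not tested. Unstimulated replicate 1 stood apart for the members: it held the highest of the 6 values for 42 of 84.

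Levels spanned a wide range. Averaged over the 6 libraries, 14 members were at or above 100 FPKM, 52 were between 10 and 100, 18 between 1 and 10, and 8 below 1. The median of the tested members was 33.6 FPKM, against 8.42 for all 10436 tested genes, and 81.0% of tested members lay above the latter. The highest was Atp5b, the catalytic beta subunit of ATP synthase, with a mean of 781 FPKM. Cox7a2l, a factor that joins complexes III and IV into supercomplexes, followed at 545 FPKM. Uqcrc1, a core protein of complex III, had 237, Atp5c1, the gamma subunit that turns inside the ATP synthase head, 224, and Atp5a1, the alpha subunit, 205. The 10 highest members, which also included Cox6a1, Cox5a, Cox4i1, Atp5h and Atp5o, supplied 50.2% of the summed FPKM of the module.

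Subunits that stand in fixed proportion within a complex differed widely at the RNA level. In ATP synthase F1 the median of the mean levels was 205 FPKM over 5 genes, and in the Fo and stalk part it was 92.5 over 10 genes. Complex II had 69.4 (4 genes), complex IV 48.8 (11 genes), complex III 45.3 (8 genes), the complex I core 34.6 (7 genes) and the complex I accessory subunits 22.2 (29 genes). The Ndufaf assembly factors of complex I, which help build the complex but do not stay in it, had 4.88 FPKM (7 genes), and all 7 lay below 10. Of the 18 members between 1 and 10 FPKM, 7 were these factors, 5 were complex I accessory subunits and 3 were Fo and stalk subunits. Among the subunits in that range, Ndufs5 had a mean of 1.42 FPKM, Atp5j2 1.85, Ndufa1 3.06, Uqcr11 4.8 and Cox7c 5.33. The highest subunits of the same complexes read 93.5 (Ndufs3), 781 (Atp5b), 237 (Uqcrc1) and 182 (Cox6a1).

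Coding length and gene copies were set beside these levels, since FPKM divides by transcript length and reads of processed pseudogenes can be shared between copies. Of the 92 members, 91 matched a gene model by symbol in GENCODE M21 (GRCm38). They lay on 19 chromosomes, and Ndufa1, Ndufb11 and Cox7b are on X. A close copy, at 90% identity or more over at least 50% of the coding length, was found for 35 members, most often for Atp5l (14 copies), Atp5h (6), Cox7c (5) and Ndufa1 (5). Levels of members with copies are therefore uncertain. Their median mean level was 32.2 FPKM, and that of the 48 tested members without a copy was 34.0. Across the 83 tested members with a gene model, Spearman's rho between level and coding length was 0.21, and between level and copy number 0.03. Across 9557 tested genes the former was −0.17. These are descriptions across genes of the same 6 libraries, which are not independent replicates. Short and long members were found below 10 FPKM: 4 of 13 with under 250 coding bases and 6 of 25 with 600 or more. Of those 6, however, only Ndufa10 is a subunit, the others being Ndufaf1, Ndufaf5, Ndufaf6, Ndufaf7 and Atp5s. The other subunits below 10 FPKM were short, with coding lengths from 168 (Uqcr11) to 429 bases (Ndufa11).

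**Figure D1:**
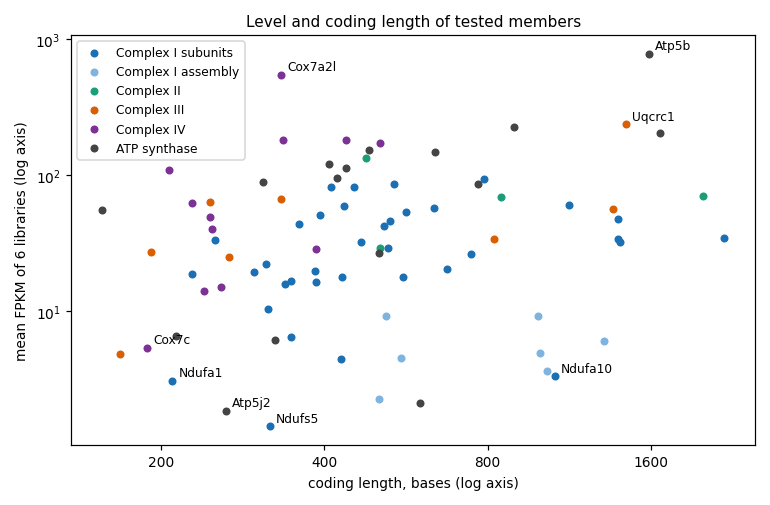
Mean FPKM over 6 libraries (vertical axis, logarithmic) against coding length in bases (horizontal axis, logarithmic) for the 83 tested members with a gene model, coloured by complex. Low subunits are short (for example Ndufa1 and Cox7c) apart from Ndufa10. The other long members at low level are assembly factors and Atp5s, and Atp5b and Uqcrc1 are long and high.

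Several nuclear factors are known to bind promoters of respiratory genes, among them NRF1, the ETS factor GABP and YY1, so the promoters of the module were searched for a short core of each. The letters were CGCATGCG for NRF1, CCGGAAG for ETS factors and AAGATGGC for YY1, each sought on both strands from 250 bases before to 50 after each RefSeq gene start (GRCm38.p6). Promoter windows were found for 76 members, 82 windows in all. The NRF1 core was in 11 of 82 member windows (13.4%) and in 1.87% of all 32851 windows. The ETS core was in 17 (20.7%, against 8.86% of all), the YY1 core in 12 (14.6%, against 2.75%), and any of the cores in 34 (41.5%, against 12.6%). The 32851 windows were not limited to genes expressed in these libraries, so the shares do not compare members with other expressed genes. A match is a description of letters, not a bound site, and several cores can share a window. To show what these matches look like, the stretches around the core in the 4 highest-expressed members with each are given 5′ to 3′ on the gene's strand, with the core in capitals. For NRF1 they are from Uqcrc1 (chr9:108936668-108936697, plus strand), Cox6a1 (chr5:115349101-115349130, minus), Atp5g2 (chr15:102671070-102671099, minus) and Atp5l (chr9:44920963-44920992, minus).
Uqcrc1: actccgctctgCGCATGCGcagcgcggctc
Cox6a1: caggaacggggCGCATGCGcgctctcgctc
Atp5g2: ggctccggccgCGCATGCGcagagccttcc
Atp5l: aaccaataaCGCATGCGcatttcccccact

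The ETS core reads CTTCCGG where it lies on the opposite strand, which was so in all 4 of the highest-expressed members with a match. They are Cox6a1 (chr5:115348956-115348985, minus), Atp5h (chr11:115419939-115419968, minus), Sdhd (chr9:50603877-50603906, minus) and Cox8a (chr19:7217603-7217632, minus). Cox6a1 thus holds an NRF1 and an ETS core in the same window.
Cox6a1: ccccatttccgCTTCCGGcgcgccggtgta
Atp5h: caaggagagaaCTTCCGGcaactctcttcc
Sdhd: ccgtctcctgcCTTCCGGttcacgcttcag
Cox8a: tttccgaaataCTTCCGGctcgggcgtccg

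For YY1 the stretches are from Atp5f1 (chr3:105959248-105959277, minus), Ndufa9 (chr6:126849097-126849126, minus), Ndufa3 (chr7:3617384-3617413, plus) and Ndufs4 (chr13:114388045-114388074, minus). The YY1 core sat mostly just after the gene start: 9 of 12 matches began after it, with a median position of 24.5. The letters of this core include ATG, with which coding parts start. Whether these matches overlap the start of the genes' own coding parts was not tested. The matches of Atp5sl at 27 and −53 are the same site, counted in both of its overlapping windows. Of 20 ETS matches 6 began after the start (median −19.0), and of 11 NRF1 matches 2 did (median −49.0).
Atp5f1: atgtgcgagcgGCCATCTTgctcctgcccc
Ndufa9: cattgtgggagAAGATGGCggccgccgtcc
Ndufa3: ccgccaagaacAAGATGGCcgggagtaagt
Ndufs4: gcgtttgcctacaggAAGATGGCggcggtc

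The differences between groups were summarised for members with and without each core, as a description with no test. Among tested members with a window, the median log2 difference of stimulated against unstimulated was 0.06 for the 11 genes with an NRF1 core and −0.05 for the 61 without. With iBP against stimulated these medians were −0.02 and −0.06. For the ETS core they were −0.07 with (17 genes) and −0.01 without (55 genes) after stimulation, and −0.05 and −0.06 with iBP. For YY1 they were 0.10 with (11 genes) and −0.05 without (61 genes), then −0.01 and −0.07.

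The first comparison, stimulated against unstimulated, asks whether expression of the respiratory machinery differed in Treg after stimulation. No member passed at an adjusted p under 0.05 in limma, where 1.29% of all tested genes did. At an unadjusted p under 0.05 the members' count was also 0, against 10.8% of all tested genes. The lowest adjusted p of a member was 0.495, that of Ndufa6. The median difference over the 84 members was −0.02 on the log2 scale (all tested genes −0.00), with a range from −0.37 to 0.42, and 37 of 84 differences were positive (5185 of 10436 over all tested genes). The members' intervals were narrower: the median half-width of the 95% interval was 0.38, against 0.57 over all tested genes. The fit draws variances towards a trend with level, and the part of this in the narrower intervals was not tested. Between unstimulated replicates the median absolute log2 gap was 0.27 both for members and for all tested genes. Between stimulated replicates it was 0.16 for members and 0.23 for all. The interval lay within 1 on the log2 scale, a 2-fold difference, for 80 of 84 members, and within 0.5 for 46. The 4 whose intervals reached past a 2-fold difference, Ndufaf5, Ndufs5, Atp5j2 and Ndufaf2, are low-level genes. Without unstimulated replicate 1 the median was 0.08, without the other unstimulated library −0.15, without stimulated replicate 1 −0.07, and without stimulated replicate 2 0.02, so the sign turned without either of 2 libraries.

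In 10 members (11.9%) both stimulated libraries lay above both unstimulated ones, a pattern seen in 18.7% of all tested genes. In 7 (8.33%) they lay below, against 19.1% of all. The 10 higher members comprised 4 ATP synthase subunits (Atp5b, Atp5c1, Atp5d and Atp5k), 4 complex I accessory subunits (Ndufb3, Ndufc1, Ndufs5 and Ndufv3), Sdhd of complex II and Atp5s. The 7 lower ones were 6 of the 36 tested complex I subunits and 1 of the 7 Ndufaf factors, shares below that of all tested genes: Ndufs3, Ndufs7 and Ndufv1 of the core, the accessory Ndufs6, Ndufa6 and Ndufb10, and the assembly factor Ndufaf7.

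The second comparison sets stimulated cells with iBP against those stimulated alone. It asks whether adding iBP came with a difference in these genes, and the histone mark was not measured in these libraries. Again no member passed, against 0.00958% of all tested genes, which is a single gene. At an unadjusted p under 0.05 there was 1 member, Ndufa8, which is 1.19% of the 84, against 4.77% of all. The median member difference was −0.05 (all tested genes −0.03), from −0.49 to 0.40, with 29 of 84 positive (4615 of 10436 over all), and 79 intervals lay within a 2-fold difference. The 5 that did not were those of Ndufaf5, Ndufs5, Atp5j2, Ndufaf3 and Atp5j. Both iBP libraries lay above both stimulated ones for 4 members (4.76%, against 13.6% of all), namely Ndufb10, Ndufaf4, Cox7c and Atp5g2. They lay below for 20 (23.8%, against 21.0% of all), a share near the background. Of these 20, 12 were subunits of complex I, which has 36 tested, and none was a subunit of complex IV, which has 11. Over all tested genes the share was 21.0%, as given above. These complexes were picked out after their values were seen, and a difference between them was not tested. Leaving out stimulated replicate 1 gave a median of −0.01, and leaving out either its partner or iBP replicate 2 gave −0.09. With libraries rescaled to the same total, to median ratios or to the same quantiles it was −0.01, −0.02 and −0.01.

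The third comparison, stimulated with iBP against unstimulated, shares its libraries with the others. No member passed, against 1.75% of all tested genes, and 3 had an unadjusted p under 0.05 (3.57%, against 12.2% of all): Atp5g2, higher, and Ndufaf1 and Ndufv1, lower. The median was −0.10 (all tested genes −0.03), from −0.67 to 0.46, and 23 of 84 differences were positive (4763 of 10436 over all). Both iBP libraries were above both unstimulated ones for 5 members (5.95%, against 18.1% of all) and below for 17 (20.2%, against 23.9% of all). The median depended on the control library: it was 0.02 without unstimulated replicate 1 and −0.23 without unstimulated replicate 2. With libraries rescaled to the same total, to median ratios or to the same quantiles it was −0.05, −0.06 and −0.06. For the 76 tested mitochondrial ribosomal protein genes, another nuclear-encoded mitochondrial set, the medians of the 3 comparisons in the same order were −0.05, −0.09 and −0.15. None of these genes passed in limma, and 0, 1 and 3 had an unadjusted p under 0.05, where all tested genes had shares of 10.8%, 4.77% and 12.2%.

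**Figure D2:**
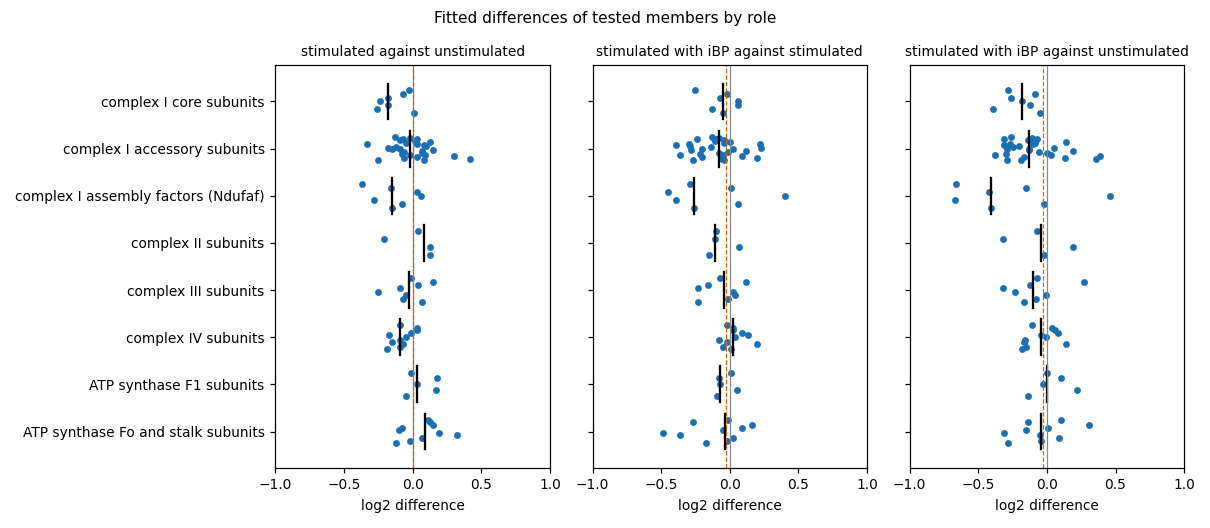
Fitted log2 differences (horizontal axis) of tested members in the 3 comparisons, 1 point for each gene in rows by role. Cox7a2l, Atp5s and Atp5sl are not drawn. A black bar marks the role's median and a dashed line the median of all tested genes. All points lie between −0.5 and 0.5 but for Ndufaf1 and Ndufaf5 in the comparison of iBP with unstimulated.

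Complex I takes electrons from NADH. Its core holds the catalytic subunits, and the median difference of the 7 was −0.18 after stimulation, −0.05 with iBP against stimulated and −0.18 with iBP against unstimulated. In the last none of the 7 was positive, but no gene of the core passed. Ndufv1, which holds the NADH-binding site (chr19:4007384-4012806, minus strand), read 43.2 and 35.7 FPKM unstimulated, 31.6 and 33.7 stimulated, and 30 and 29.4 with iBP. The unstimulated libraries were highest and the iBP libraries lowest, with no overlap between any of the groups. Its log2 difference was −0.26 ± 0.16 (SE) after stimulation (limma adjusted p = 0.619) and −0.39 ± 0.16 for iBP against unstimulated (0.327). Ndufs3, a peripheral arm subunit and the highest of the core, read 101 and 106, then 87.7 and 94.0, then 90.6 and 82.3 FPKM. Here unstimulated libraries lay above all others, at −0.18 ± 0.12 after stimulation (limma adjusted p = 0.671).

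Ndufs1, which carries iron-sulfur clusters along the electron path, read 31.4 and 43.3 FPKM unstimulated, 32.7 and 39.8 stimulated, and 28.1 and 32.4 with iBP. The iBP libraries lay below both stimulated ones, by a small margin, and overlapped the unstimulated ones. Ndufs7, whose cluster passes electrons to quinone and which was the lowest of the core, read 25.4 and 19.6, 18.8 and 18.5, and 20.7 and 18.5. Its stimulated libraries lay below both unstimulated ones, and 1 unstimulated library stood above all others.

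The accessory subunits, which surround and stabilise the core, had medians of −0.02, −0.08 and −0.13 over 29 genes in the 3 comparisons. Ndufa8 (chr2:36036326-36049406, minus strand), a subunit facing the intermembrane space, read 49.1 and 40.1 FPKM unstimulated, 46.9 and 46.8 stimulated, and 37.6 and 33.6 with iBP. The iBP libraries were the lowest of all, and the difference from stimulated was −0.39 ± 0.15 (limma adjusted p = 0.998). Its window holds the NRF1 core. Ndufa6 (chr15:82350140-82354322, minus strand), a peripheral arm subunit, read 57.9 and 53.0 unstimulated, 49.2 and 39.3 stimulated, and 47.7 and 55.7 with iBP. Stimulated libraries lay below unstimulated ones, at −0.33 ± 0.16 (limma adjusted p = 0.495), and iBP libraries overlapped both groups.

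Ndufc1, a small membrane arm subunit, went the other way, with 15.0 and 16.4 FPKM unstimulated, 20.2 and 18.9 stimulated, and 18.7 and 23.4 with iBP. Both stimulated groups lay above the unstimulated one, at 0.30 ± 0.19 (limma adjusted p = 0.629) without iBP and 0.39 ± 0.19 (0.426) with it. Ndufb10, also of the membrane arm, read 46.9 and 47.8, then 40.4 and 43.3, then 50.4 and 47.7 FPKM. The stimulated libraries were the lowest, and iBP differed from them by 0.23 ± 0.14 (limma adjusted p = 0.998). Ndufs5 had the largest positive difference after stimulation, 0.42 ± 0.43, but is a low gene with a close copy, and its iBP libraries read 0.629 and 2.78 FPKM. That gap within 1 group exceeds every difference between the groups. Ndufb9 was the highest accessory subunit, with a mean of 86.5 FPKM and overlapping groups.

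The Ndufaf assembly factors had medians of −0.15, −0.26 and −0.41 in the 3 comparisons, the last 2 being the lowest of any role list, and their median standard error was 0.35. Ndufaf1 (chr2:119655446-119662827, minus strand), which helps assemble the membrane arm, read 12.9 and 10.2 FPKM unstimulated, 10.6 and 7.06 stimulated, and 6.59 and 7.26 with iBP. The iBP libraries lay below both unstimulated ones and overlapped the stimulated ones. The difference was −0.37 ± 0.25 after stimulation (limma adjusted p = 0.673) and −0.66 ± 0.25 for iBP against unstimulated (0.297), the lowest adjusted p of any member. Ndufaf4, a partner of Ndufaf3 in assembly, went the other way, with 7.35 and 8.55, then 9.02 and 7.64, then 9.87 and 12.8 FPKM. Its iBP libraries were the highest, at 0.40 ± 0.23 against stimulated (limma adjusted p = 0.998) and 0.46 ± 0.23 against unstimulated (0.472).

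Of the other assembly factors, Ndufaf5, which modifies Ndufs7, had the largest negative difference of any member, −0.67 ± 0.38 for iBP against unstimulated (limma adjusted p = 0.529). Its libraries read 3.32 and 5.93, 4.36 and 2.78, and 3.71 and 1.5 FPKM, so that the groups overlapped. Ndufaf3, which acts with Ndufaf4, read 2.1 and 5.18 with iBP against 5.32 and 4.62 stimulated and 4.19 and 5.59 unstimulated, so that a single iBP library was low. Ndufaf7, a methyltransferase, had groups in order without overlap: 7.51 and 6.34 unstimulated, 6.27 and 5.99 stimulated, 4.15 and 5.92 with iBP. The largest of its differences was −0.41 ± 0.26 (limma adjusted p = 0.600). Ndufaf2, which binds a late assembly intermediate, was the lowest of these factors, with a mean of 2.25 FPKM.

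Complex II oxidises succinate and is shared with the citric acid cycle. Its 4 genes had medians of 0.08, −0.11 and −0.05. Sdha, the flavoprotein, read 60.6 and 80.7 FPKM unstimulated, 69.8 and 73.7 stimulated, and 60.0 and 74.1 with iBP, all overlapping. Sdhb, the iron-sulfur subunit, read 91.8 and 64.8, 73.0 and 60.7, and 60.1 and 63.5, with unstimulated replicate 1 well above the rest. Sdhd, a membrane anchor and the highest of the complex, read 134 and 128 unstimulated, 145 and 142 stimulated, and 125 and 133 with iBP. The stimulated libraries were the highest, by 0.13 ± 0.11 (limma adjusted p = 0.778). Sdhc, the other anchor and the lowest of the complex, had a mean of 29.2 FPKM with overlapping groups.

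Complex III passes electrons from ubiquinol to cytochrome c. Its 8 genes had medians of −0.03, −0.04 and −0.10. Uqcrc1 read 305 and 215 FPKM unstimulated, 208 and 280 stimulated, and 218 and 194 with iBP, a spread within groups as wide as any between them. Uqcrfs1, the Rieske iron-sulfur protein, was even, between 31.4 and 35.2 in all 6 libraries. Uqcr11, a small subunit with close copies, was the lowest and read between 3.31 and 6.37.

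Complex IV reduces oxygen. Its 11 subunits had medians of −0.09, 0.02 and −0.04, and their differences stayed between −0.19 and 0.20 in all 3 comparisons. Cox4i1, an early assembling nuclear subunit, read 194 and 163 FPKM unstimulated, 179 and 157 stimulated, and 162 and 168 with iBP. Cox5a, its assembly partner, read 187 and 171, 186 and 178, and 189 and 179. The groups overlapped for both. Cox6a1 was the highest (mean 182) and Cox7c the lowest (mean 5.33), and the iBP libraries of Cox7c, at 5.40 and 6.29, lay above the stimulated ones at 5.20 and 4.66 by 0.20 ± 0.26 (limma adjusted p = 0.998). Cox7a2l overlapped in all groups, with 573 and 503, 606 and 501, and 517 and 570 FPKM.

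Several complex IV subunits have a ubiquitous isoform and another known from muscle, lung, testis or hypoxic tissue. The ubiquitous forms Cox4i1, Cox6a1, Cox6b1, Cox7a2, Cox7b, Cox8a and Ndufa4 had means of 171, 182, 15.1, 40.2, 14.0, 108 and 48.8 FPKM. The alternatives were near or at 0. Cox4i2 was at most 0.788 FPKM, Cox6a2 at most 0.885, Cox6b2 at most 0.804 and Cox7a1 at most 0.399. Cox8b was above 0 in stimulated replicate 1 (0.355) and iBP replicate 2 (0.490), and Ndufa4l2 in unstimulated replicate 2 (0.390). Cox7b2 and Cox8c were listed at 0 in all 6 libraries. In each pair the ubiquitous form thus carried nearly all of the signal in every group.

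ATP synthase had the highest levels. The F1 head, which makes ATP, had medians of 0.03, −0.07 and −0.00 over 5 genes. Atp5b (chr10:128083273-128090391, plus strand) read 696 and 765 FPKM unstimulated, 833 and 821 stimulated, and 761 and 808 with iBP. The stimulated libraries were the highest, at 0.18 ± 0.10 (95% interval −0.04 to 0.40, limma adjusted p = 0.578), and the iBP libraries overlapped the unstimulated ones. Atp5a1 was the most even member, between 197 and 215 FPKM, a ratio of 1.09 between its highest and lowest library against a median ratio of 1.40 over the tested members. Atp5d, the lowest of F1, read 23.7 and 24.5, then 27.4 and 27.0, then 29.8 and 26.8, so both stimulated groups lay above the unstimulated one, by 0.17 ± 0.16 (limma adjusted p = 0.792) without iBP.

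The Fo and stalk subunits, which carry protons and hold the head still, had medians of 0.09, −0.03 and −0.04 over 10 genes. The proton-carrying c ring is encoded by Atp5g1, Atp5g2 and Atp5g3, which yield the same mature protein, and these differed in pattern. Atp5g2 (chr15:102662864-102672352, minus strand) read 94.1 and 106 FPKM unstimulated, 124 and 100 stimulated, and 125 and 124 with iBP. The iBP libraries were the highest, at 0.31 ± 0.14 above unstimulated (limma adjusted p = 0.386). Atp5g1 read 136 and 104, 125 and 136, and 123 and 94.6, and here the iBP libraries lay below the stimulated ones, at −0.27 ± 0.16 (limma adjusted p = 0.998). Atp5g3 overlapped in all groups, between 87.4 and 107. Both Atp5g1 and Atp5g2 have 4 close copies.

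Atp5h, a stalk subunit and the highest of the Fo list, had a mean of 154 FPKM with overlapping groups. Atp5j, coupling factor 6 of the stalk, had the largest negative difference with iBP, −0.49 ± 0.27 (limma adjusted p = 0.998). It read 8.31 and 6.20 FPKM stimulated and 5.47 and 4.22 with iBP, and 6.68 and 5.73 unstimulated, so the iBP libraries were the lowest. Atp5j2 (1.25 and 2.08, 1.89 and 2.72, 1.94 and 1.22) overlapped throughout. Atp5s and Atp5sl carry the family name but are not subunits. Atp5s read 1.84 and 1.92 unstimulated, 2.52 and 2.29 stimulated and 2.2 and 1.92 with iBP, and Atp5sl, now known as an assembly factor of complex I, between 17.6 and 21.7.

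Libraries of the same group also differed. Unstimulated replicate 1 held the highest value for 42 of 84 tested members, where it did so for 22.2% of all tested genes. Stimulated replicate 2 held it for 4 members (4.76%, against 20.6%). Within the unstimulated pair, replicate 1 was above replicate 2 for 62 of 84 members (73.8%, against 45.9% of all tested genes), with a median gap of 0.25 (log2) where all tested genes had −0.04. The 3 medians between groups were −0.02, −0.05 and −0.10. It was seen in all 11 complex IV subunits (median 0.26), in 24 of 29 accessory subunits of complex I (0.31) and in 6 of 8 complex III subunits (0.38), but in only 2 of 5 F1 subunits (−0.05) and 3 of 7 Ndufaf factors (−0.19). Ndufb8, for instance, read 25.7 against 14.3 FPKM, 1.79 times as much, and Uqcrc1 305 against 215, 1.42 times.

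**Figure D3:**
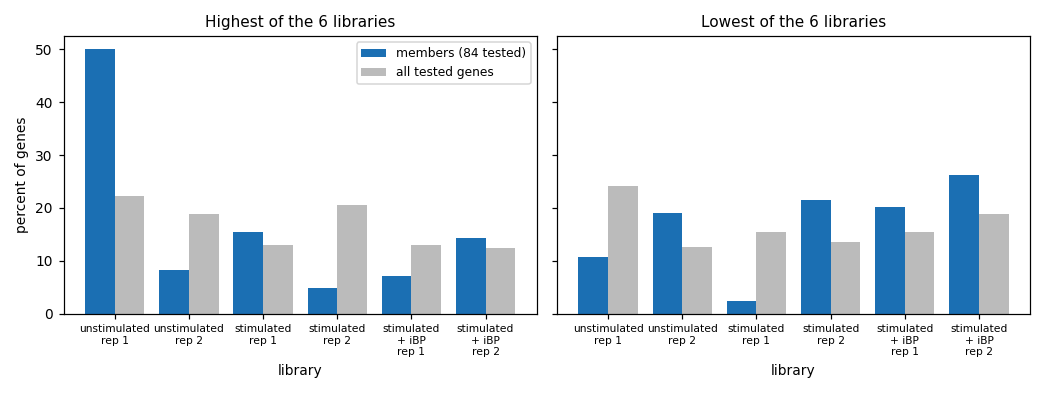
Percent of the 84 tested members (blue) and of all tested genes (grey) whose highest value (left) or lowest value (right) lies in each of the 6 libraries. Unstimulated replicate 1 holds the highest value for 42 of 84 members and for 22.2% of all genes.

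The stimulated pair showed a smaller gap in the same direction, with 61 of 84 members higher in replicate 1 (72.6%, against 44.1% of all) and a median of 0.09. The iBP pair had 39 of 84 and −0.05. Short genes as a whole were higher in unstimulated replicate 1: over all tested genes the median gap was 0.19 under 250 coding bases, 0.13 from 250 to 399, 0.07 from 400 to 599 and −0.06 from 600. In the same bins the members had 0.31, 0.23, 0.24 and 0.21, so the members' gap was also there among long genes. Mitochondrial ribosomal protein genes had a median deviation from their own mean of 0.15 in that library, and the members 0.14. The part of coding length, RNA quality or cell content in this gap was not tested.

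**Figure D4:**
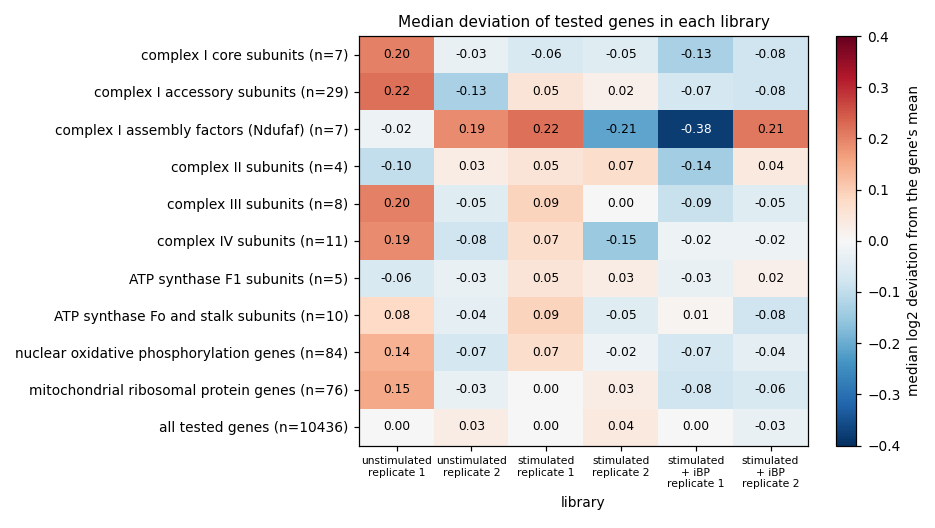
Median log2 deviation of tested genes from their own mean over 6 libraries, in rows by role and in columns by library, with the value printed in each cell and red for higher. Complex I subunits, complex III and complex IV are between 0.19 and 0.22 in unstimulated replicate 1, F1 is at −0.06, and all tested genes are at or near 0.

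Of the other pathway genes, in lists drawn up by role, none passed the test in any comparison. Of 12 electron carriers, transporters and uncoupling genes 11 were tested, with medians of 0.01, −0.06 and −0.09, and 0 had an unadjusted p under 0.05 in any comparison. Cyc1, cytochrome c1 of complex III, lay between 91.1 and 109 FPKM, Cycs, cytochrome c, between 11.4 and 12.3, and Slc25a5, an ADP/ATP carrier, between 190 and 253. Of 40 further assembly factors 39 were tested, with medians of −0.07, −0.07 and 0.02, and 3, 2 and 5 of them had an unadjusted p under 0.05, where all tested genes had shares of 10.8%, 4.77% and 12.2%. The 3 genes with the largest differences of the list in any comparison, chosen after their values were seen, are given here. Nubpl, which delivers iron-sulfur clusters to complex I, read 3.86 and 2.70 FPKM unstimulated, 6.01 and 10.9 stimulated, and 6.16 and 5.97 with iBP. The stimulated libraries all lay above the unstimulated ones, at 1.11 ± 0.31 without iBP (limma adjusted p = 0.142). Foxred1, another complex I factor, showed the same order, with 7.63 and 9.78, 16.8 and 16.1, and 15.2 and 11.4 FPKM (0.85 ± 0.22, limma adjusted p = 0.103). Lyrm7, a chaperone of the Rieske protein, read 1.43 and 3.31, 1.04 and 1.93, and 0.0449 and 0.484, lowest with iBP, at −1.38 ± 0.41 against unstimulated (limma adjusted p = 0.153).

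Of 17 nuclear regulators of respiration and mitochondrial DNA 16 were tested, with medians of 0.07, −0.08 and −0.03. An unadjusted p under 0.05 was found for 2, 0 and 1 of the 16, where all tested genes had shares of 10.8%, 4.77% and 12.2%. Pprc1 and Polg2, given below, had the largest positive and negative differences of the list after stimulation. Ppargc1a, the coactivator that drives mitochondrial biogenesis in muscle and brown fat, was listed at 0 in 5 libraries and at 0.0931 FPKM in unstimulated replicate 1. Pprc1, a related coactivator, read 4.88 and 6.77 unstimulated, 9.24 and 8.97 stimulated, and 6.42 and 7.36 with iBP (0.58 ± 0.25 after stimulation, limma adjusted p = 0.428). Polg2, the accessory subunit of the mitochondrial DNA polymerase, read 22.1 and 21.5, then 15.2 and 14.8, then 14.8 and 14.3. Both stimulated groups lay below the unstimulated one with little spread, at −0.51 ± 0.18 without iBP (limma adjusted p = 0.280).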

How the data were processed

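The authors deposited FPKM values for the 6 libraries, made with HISAT2 2.2.1 and StringTie 2.1.1 on mm10, per the submitters' processing notes. The sources used here do not give the annotation, multi-mapping or strand settings. Depth is unknown, PCR copies were not separated, and no counting error can be given. The members and lists were chosen with earlier results of these data known. Values were analysed as log2(FPKM + 1), which understates differences of low genes. The 10436 genes that reached an FPKM of 1 in 2 or more libraries entered a limma 3.58.1 model (R 4.3.3) of 3 groups with a variance trend, tested on simulated data. Two-sided p-values were adjusted by Benjamini-Hochberg over all tested genes, and an adjusted p under 0.05 passed. Errors are standard errors of that fit. Whether replicate libraries are from different animals is not in the labels, so the p-values reflect only differences among these libraries, possibly technical ones. Members named with values are any that passed, the 4 largest positive and 4 largest negative differences per comparison, the highest and lowest of each role list, defining subunits and isoform sets. Members outside that rule were named after their values were seen. Copies were sought with BLAST 2.17.0. Alternatives were other pseudocounts, filters, scalings and variance models, fewer samples, and the replicate number as a block. Some genes that come under these rules are not reported here, although sums and counts over lists include them.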

Additional observations from a re-analysis of the deposited data

How the results depend on the processing

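No member was called in any comparison under any of 17 other settings, or in the 2 added after seeing the data (members without close copies, and members of 400 or more coding bases). The lowest adjusted p of a member in any of them was 0.099 (limma, iBP against unstimulated without unstimulated replicate 2). The median member difference ranged, when each library was left out, from −0.15 to 0.08 for stimulated against unstimulated, from −0.09 to −0.01 for iBP against stimulated, and from −0.23 to 0.02 for iBP against unstimulated. The extremes of the first and the last came from leaving out either unstimulated library, and the cause was not tested. A group left with 1 library was assumed to vary like the others. The labels do not say that equal replicate numbers pair the samples, and their deviations correlated at −0.05, −0.02 and −0.01. With a replicate block, 0 members were called and the medians were −0.02, −0.05 and −0.10, while calls over all genes went from 135, 1 and 183 to 79, 1 and 109. Calls over all genes were 12, 0 and 11 with no filter and 12, 0 and 9 with no variance trend. Depth is unknown, so low members are limited only by the spread of 2 libraries a group.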
